A study of Homo sapiens with 4 samples.

Results

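FEZ1, CHN1, CSPG5, ACCN1 and CACNA2D2 are 5 genes known for their roles in nerve cells, and on these arrays their signal was higher in the NANOG knock-down and lower in the OCT4 and SOX2 knock-downs than in mock-treated cells. They were read by 7 of the 47289 probes of the array, 3 for FEZ1 and 1 for each of the other genes, and all 7 were among the 12374 probes that were detected on all 3 arrays of at least 1 group and were tested. The genes were picked because of this pattern, from the signals of the same 12 arrays. Their differences from mock are therefore given as a description without a test. The same holds for the OCT4 against the SOX2 knock-down, since a choice of genes that were low in both favours a difference near 0.

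The cells were NCCIT, an established human embryonal carcinoma (hEC) line, which is derived from a germ cell tumour and shares the pluripotency factors OCT4, NANOG and SOX2 with embryonic stem cells. The arrays fell into 4 groups of 3. Mock cells received the transfection reagent Hyperfect without RNA, and the other groups received the reagent with endoribonuclease-prepared siRNA (esiRNA, a pool of short RNAs cut from a longer transcript) against OCT4, NANOG or SOX2. Cells of all groups came from the same line and were harvested at day 2.5 after transfection according to the labels. The mock cells contained no esiRNA, so that effects of any short RNA and of the loss of a target cannot be told apart in a comparison with mock, and a knock-down lowers its target without removing it.

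FEZ1 is an adaptor that links cargo to kinesin motors and is known for its role in axon outgrowth and bundling. CHN1 encodes alpha-chimaerin, which switches off the small GTPase RAC1 and acts downstream of Eph receptors when growing axons turn. CSPG5, also called neuroglycan C, is a membrane-spanning chondroitin sulphate proteoglycan of the nervous system with an EGF-like domain. ACCN1, which is now named ASIC2, is a subunit of the proton-gated sodium channels of neurons, and CACNA2D2 is an alpha2/delta subunit, an auxiliary part of voltage-gated calcium channels that promotes their delivery to the cell surface.

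The sequences behind the perturbation are the primer pairs with which the templates for esiRNA production were amplified. They are shown because they bound the stretch of each transcript from which the silencing pool was made, and 2 separate pools existed for NANOG. Which of these was hybridised on the 3 NANOG knock-down arrays is not given in the sources used here. The gene-specific part of each primer is written from its 5' to its 3' end.
NANOG 1 forward primer: aactggccgaagaatagcaa
NANOG 1 reverse primer: ctcgctgattaggctccaac
NANOG 2 forward primer: gactgagctggttgcctcat
NANOG 2 reverse primer: tctggaaccaggtcttcacc
OCT4 forward primer: gagaaggagaagctggagca
OCT4 reverse primer: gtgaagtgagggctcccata
SOX2 forward primer: catcacccacagcaaatgac
SOX2 reverse primer: ggaaagttgggatcgaacaa

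Since the 5 genes moved together, the 250 bases before their annotated starts were searched on both strands for 6 short words related to the sites of POU, SOX and homeodomain factors. The words were the octamer ATGCAAAT, the palindrome ATGCAT, the SOX word ACAATG with its relative ACAAAG, the homeodomain word TAATGG and the palindrome TAATTA. RefSeq (GRCh38.p14) lists 8 such windows for the 5 genes, and 2 of them contained a match, which are shown here 5' to 3' on the gene's strand with the match in capitals. The other 6 windows, of CHN1, CSPG5 and CACNA2D2, contained none of these letters.
FEZ1, chr11:125496266-125496515, minus strand: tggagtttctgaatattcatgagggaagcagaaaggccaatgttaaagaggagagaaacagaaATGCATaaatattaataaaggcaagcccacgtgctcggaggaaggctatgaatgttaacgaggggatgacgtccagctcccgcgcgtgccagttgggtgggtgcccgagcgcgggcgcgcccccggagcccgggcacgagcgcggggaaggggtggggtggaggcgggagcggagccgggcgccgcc
ASIC2 (ACCN1), chr17:33293296-33293545, minus strand: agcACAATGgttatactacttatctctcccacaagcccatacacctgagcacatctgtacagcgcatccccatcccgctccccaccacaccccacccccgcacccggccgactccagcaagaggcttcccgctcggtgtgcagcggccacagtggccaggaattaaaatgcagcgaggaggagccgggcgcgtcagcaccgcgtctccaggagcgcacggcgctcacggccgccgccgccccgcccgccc
ATGCAT was found in the FEZ1 window, with its first letter 187 bases before the start, and 3.49% of all 35116 windows of this length contained it. ACAATG was found in the ASIC2 window, 247 bases before the start, and 9.29% of all windows contained it. ATGCAAAT (1.63% of all windows), ACAAAG (13.7%), TAATGG (5.9%) and TAATTA (4.35%) were not found in any of the 8. The matches did not overlap, and they describe the letters of these windows without showing binding of any factor. The GC content was 61.2% for FEZ1 and 66.8% for ASIC2 against a median of 58% over all windows.

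Between 11196 and 12858 probes were detected per array, where detected means a BeadStudio detection score above 0.99, and the arrays of a group correlated with each other between 0.992 and 0.997. The median raw signal of probes that were not detected was 93.9 to 101 in mock, 98.8 to 104.7 in the NANOG, 111.4 to 119.3 in the OCT4 and 105 to 110.7 in the SOX2 knock-down, so the background differed between groups before it was corrected. The NANOG probe fell by 1.85 on the log2 scale in the NANOG knock-down (SE 0.10, adjusted p = 1.28e-07 in limma), and was not detected on any array of the OCT4 or SOX2 knock-down, where it was at least 9.34-fold and 8.52-fold lower than in mock. POU5F1, the gene of OCT4, was detected on 1 of 3 arrays of the OCT4 knock-down, with a fitted difference from mock of -4.21 (SE 0.13, adjusted p = 7.73e-11 in limma) that rests on signals mostly at the background. It was at least 15.2-fold lower in the SOX2 knock-down, in which it was not detected. No probe was named as SOX2 in the names used here, so the SOX2 label was not checked on its own target. In the NANOG knock-down POU5F1 fell by 0.42 (SE 0.13, adjusted p = 0.0278), which is below the 1.5-fold line. All levels below are log2 of the background-corrected and quantile-normalized signal, and a signal drop in a bulk sample cannot tell fewer cells with the RNA from less RNA per cell.

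FEZ1 gave the largest rise of the 5 genes in the NANOG knock-down, on all of its probes. For the probe of transcript variant 1 (GI_17105402-I) the levels were 9.49, 9.45 and 9.34 in mock and 11.23, 11.32 and 11.28 in the NANOG knock-down. They were 7.51, 7.48 and 7.62 in the OCT4 knock-down and 7.50, 7.54 and 7.46 in the SOX2 knock-down. The groups lay apart, with every NANOG array above and every OCT4 and SOX2 array below the mock arrays, while the OCT4 and SOX2 arrays overlapped. The difference from mock was 1.85 (SE 0.07), a 3.61-fold higher signal, with NANOG silenced, and this was rank 17 from the top of all 12374 probes. With OCT4 and SOX2 silenced the differences were -1.89 and -1.93 (SE 0.07 each), a 3.7-fold and a 3.8-fold lower signal.

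The second probe of the variant 1 record (GI_17105402-A) read 8.99, 8.81 and 8.82 in mock and 10.30, 10.40 and 10.57 in the NANOG knock-down. It read 6.79, 6.54 and 6.72 in the OCT4 knock-down and 6.47, 6.92 and 6.78 in the SOX2 knock-down. The order of the groups was the same, and the differences from mock were 1.55, -2.19 and -2.15 (SE 0.12 each) with NANOG, OCT4 and SOX2 silenced.

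The probe of FEZ1 transcript variant 2 (GI_17105401-I) fell to the background. Its levels were 8.46, 8.51 and 8.53 in mock, 10.19, 10.09 and 10.01 in the NANOG knock-down, 5.82, 5.45 and 5.43 in the OCT4 knock-down and 5.10, 5.19 and 5.13 in the SOX2 knock-down. It was detected on all arrays except those of the SOX2 knock-down, where its scores were 0.968, 0.983 and 0.974. With NANOG silenced the signal was 3.02-fold higher than in mock (1.59, SE 0.10). It was 7.65-fold lower with OCT4 silenced (-2.94, SE 0.10), and with SOX2 silenced at least 9.03-fold lower than in mock and at least 27.3-fold lower than in the NANOG knock-down, where the bound sets the SOX2 arrays at their lowest detected signal.

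The FEZ1 probes thus differed in the size of their fall and less in the size of their rise. The difference between the variant 1 and the variant 2 probe on the same array was 0.93 ± 0.11 in mock and 1.18 ± 0.13 in the NANOG knock-down (SD, n = 3). It was 1.98 ± 0.25 in the OCT4 knock-down (SD, n = 3) and at least 2.18 in the SOX2 knock-down, where the variant 2 probe was not detected and is set at its bound. These values are a difference of 2 probes with their own hybridisation strength and, near the background, their own lower limit, so only its change between groups can be read. Whether the transcript variants changed in proportion was not tested.

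**Figure D1:**
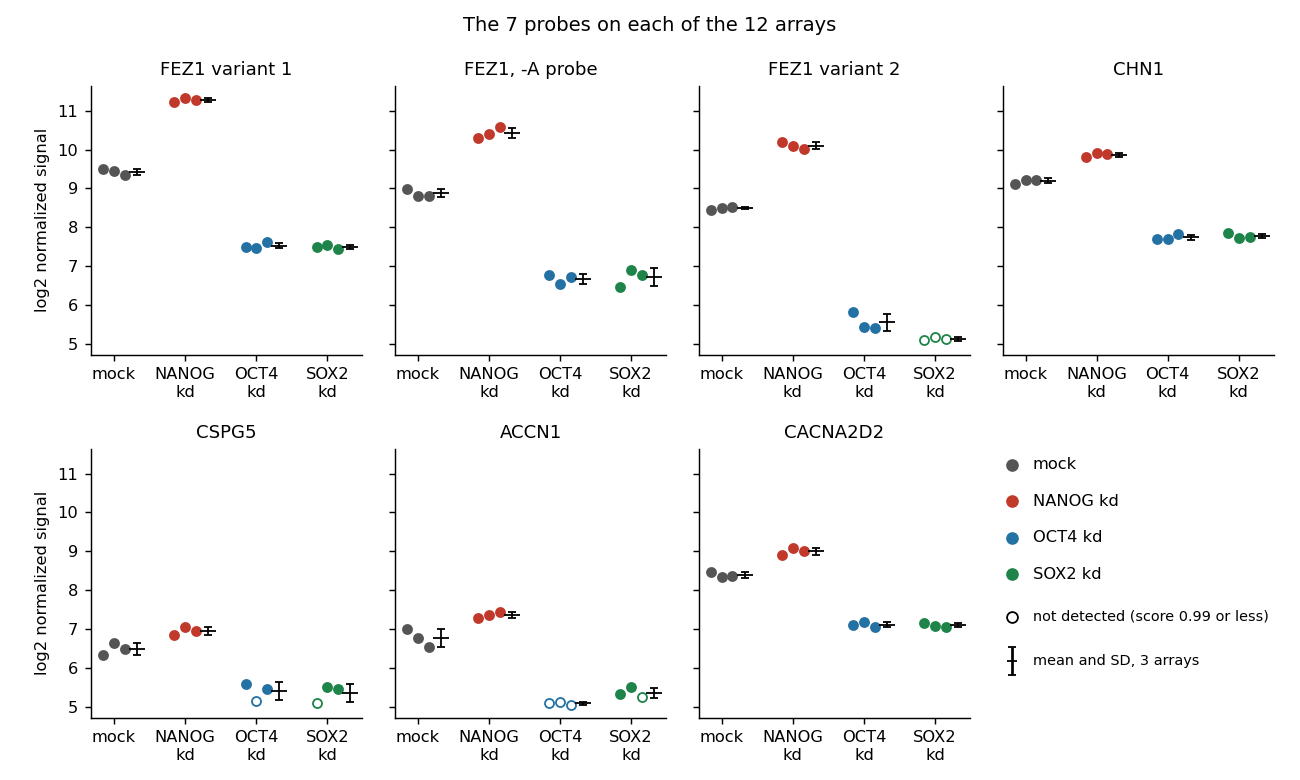
Log2 normalized signal (vertical axis) of each of the 7 probes on the 12 arrays, by group, with filled points for arrays on which the probe was detected, open points for arrays on which it was not, and the mean and SD of 3 arrays in black. In every panel the NANOG knock-down arrays lie above mock and the OCT4 and SOX2 arrays below it, and open points occur for FEZ1 variant 2, CSPG5 and ACCN1.

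CHN1 and CACNA2D2 were well above the background on every array and showed the same order with a smaller rise. CHN1 read 9.12, 9.23 and 9.23 in mock, 9.80, 9.90 and 9.88 in the NANOG knock-down, 7.71, 7.70 and 7.82 in the OCT4 knock-down and 7.85, 7.74 and 7.75 in the SOX2 knock-down. Its signal was 1.59-fold higher than in mock with NANOG silenced (0.67, SE 0.07), 2.74-fold lower with OCT4 silenced (-1.45, SE 0.07) and 2.66-fold lower with SOX2 silenced (-1.41, SE 0.07). CACNA2D2 read 8.48, 8.34 and 8.38 in mock, 8.91, 9.08 and 9.02 in the NANOG knock-down, 7.10, 7.20 and 7.07 in the OCT4 knock-down and 7.17, 7.09 and 7.07 in the SOX2 knock-down. Here the signal was 1.52-fold higher with NANOG silenced (0.61, SE 0.07), and 2.43-fold and 2.44-fold lower with OCT4 and SOX2 silenced (-1.28 and -1.29, SE 0.07 each). For both genes the mock arrays did not overlap those of any knock-down.

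ACCN1 and CSPG5 gave dim signals that reached the background when OCT4 or SOX2 was silenced. ACCN1, read by the probe GI_34452696-A, gave 7.01, 6.78 and 6.55 in mock, 7.29, 7.38 and 7.44 in the NANOG knock-down, 5.12, 5.13 and 5.05 in the OCT4 knock-down and 5.35, 5.51 and 5.26 in the SOX2 knock-down. The rise with NANOG silenced was 1.5-fold (0.59, SE 0.11), and the mock arrays spread more widely than those of any other group (SD 0.23). With OCT4 silenced ACCN1 was not detected on any array and was at least 3.01-fold lower than in mock, while with SOX2 silenced it was detected on 2 of 3 arrays and 2.66-fold lower (-1.41, SE 0.11). Another probe of the ACCN1 record (GI_34452696-I) was detected on 0 of 12 arrays, with scores of 0.198 to 0.811 and log2 signals of 4.42 to 4.72.

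CSPG5 read 6.34, 6.64 and 6.50 in mock, 6.86, 7.07 and 6.95 in the NANOG knock-down, 5.60, 5.17 and 5.48 in the OCT4 knock-down and 5.10, 5.51 and 5.47 in the SOX2 knock-down. It was detected on 2 of 3 arrays of each of the OCT4 and SOX2 knock-downs. The NANOG arrays were all above the mock arrays, but the difference of 0.47 (SE 0.13) amounted to 1.38-fold and was the only 1 of the 7 below the 1.5-fold line. With OCT4 and SOX2 silenced its signal was 2.11-fold and 2.19-fold lower (-1.08 and -1.13, SE 0.13 each). ACCN1 lay just inside and CSPG5 just outside that line, and the place of ACCN1 depended on the mock arrays: without mock replicate 3 its difference was 0.47, and without mock replicate 1 it was 0.70.

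Across the 7 probes, the difference from mock ranged from 0.47 to 1.85 (median 0.67) with NANOG silenced, from -2.94 to -1.08 (median -1.68) with OCT4 silenced and from -3.36 to -1.13 (median -1.41) with SOX2 silenced. ACCN1 with OCT4 and the FEZ1 variant 2 probe with SOX2 silenced were not detected, and with these at their bounds the OCT4 median was -1.59, the SOX2 median stayed at -1.41 and the lowest SOX2 value was -3.18. Over all 12374 probes tested the medians of the same differences were 0.01, -0.03 and -0.04. At an adjusted p under 0.05 and at least 1.5-fold, 9.53%, 24.8% and 24.1% of all probes were called with NANOG, OCT4 and SOX2 silenced. Of these, 642 probes (5.19%) were higher and 537 (4.34%) lower with NANOG silenced, 1727 (14%) higher and 1337 (10.8%) lower with OCT4 silenced, and 1675 (13.5%) higher and 1301 (10.5%) lower with SOX2 silenced. With arrays scaled to a common median in place of quantile normalization, the split was 465 higher and 608 lower with NANOG silenced, and 1389 higher and 1758 lower with OCT4 silenced. By these lines 6 of the 7 probes were higher with NANOG silenced, and all 7 were lower with OCT4 and with SOX2 silenced, which their choice fixed. The full pattern, higher with NANOG and lower with both OCT4 and SOX2 silenced, held for 34 probes (0.275%), 6 of which were the probes of FEZ1, CHN1, ACCN1 and CACNA2D2. The opposite pattern held for 33 probes (0.267%), whereas 310 (2.51%) were higher and 280 (2.26%) lower in all 3 knock-downs. An order without overlap, in which every NANOG array lay above every mock array and every mock array above every OCT4 and SOX2 array, was seen for 379 probes (3.06%), all 7 described here included. All of these comparisons share the mock arrays.

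**Figure D2:**
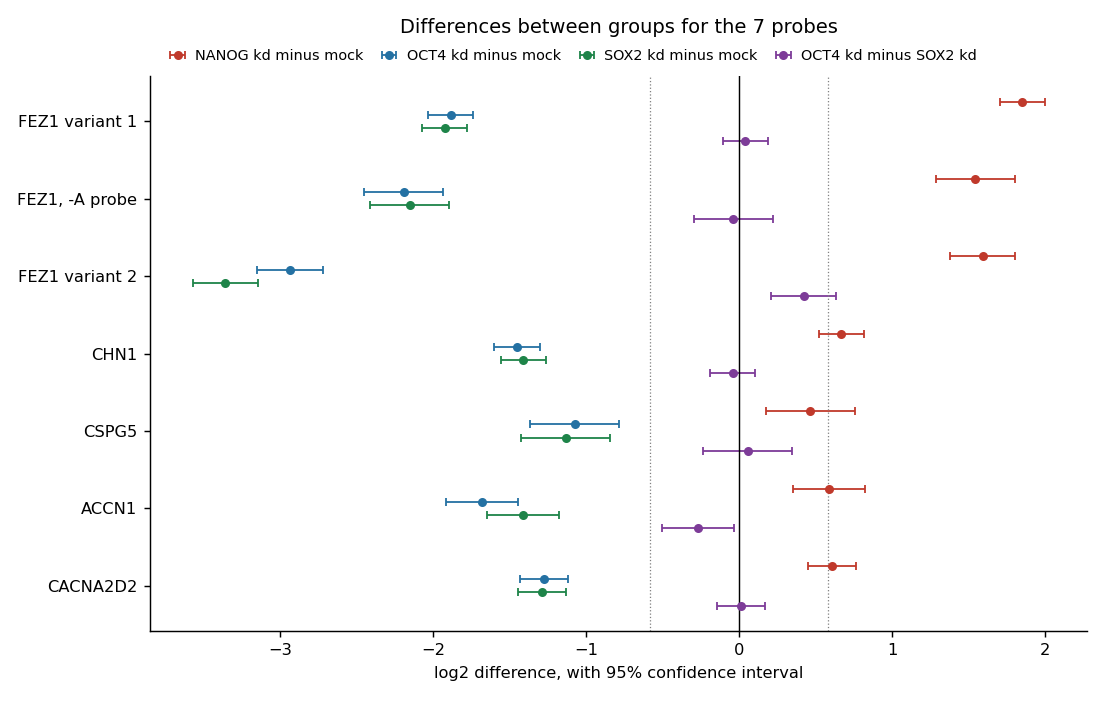
Log2 difference between groups (horizontal axis) for the 7 probes, with points for the estimate, bars for its 95% confidence interval in limma and dotted lines at a 1.5-fold difference. The NANOG values lie between 0.47 and 1.85, the OCT4 and SOX2 values between -3.36 and -1.08 (those of FEZ1 variant 2 with SOX2 and ACCN1 with OCT4 silenced rest on arrays without detection), and the differences between the OCT4 and SOX2 knock-downs between -0.27 and 0.42.

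**Figure D3:**
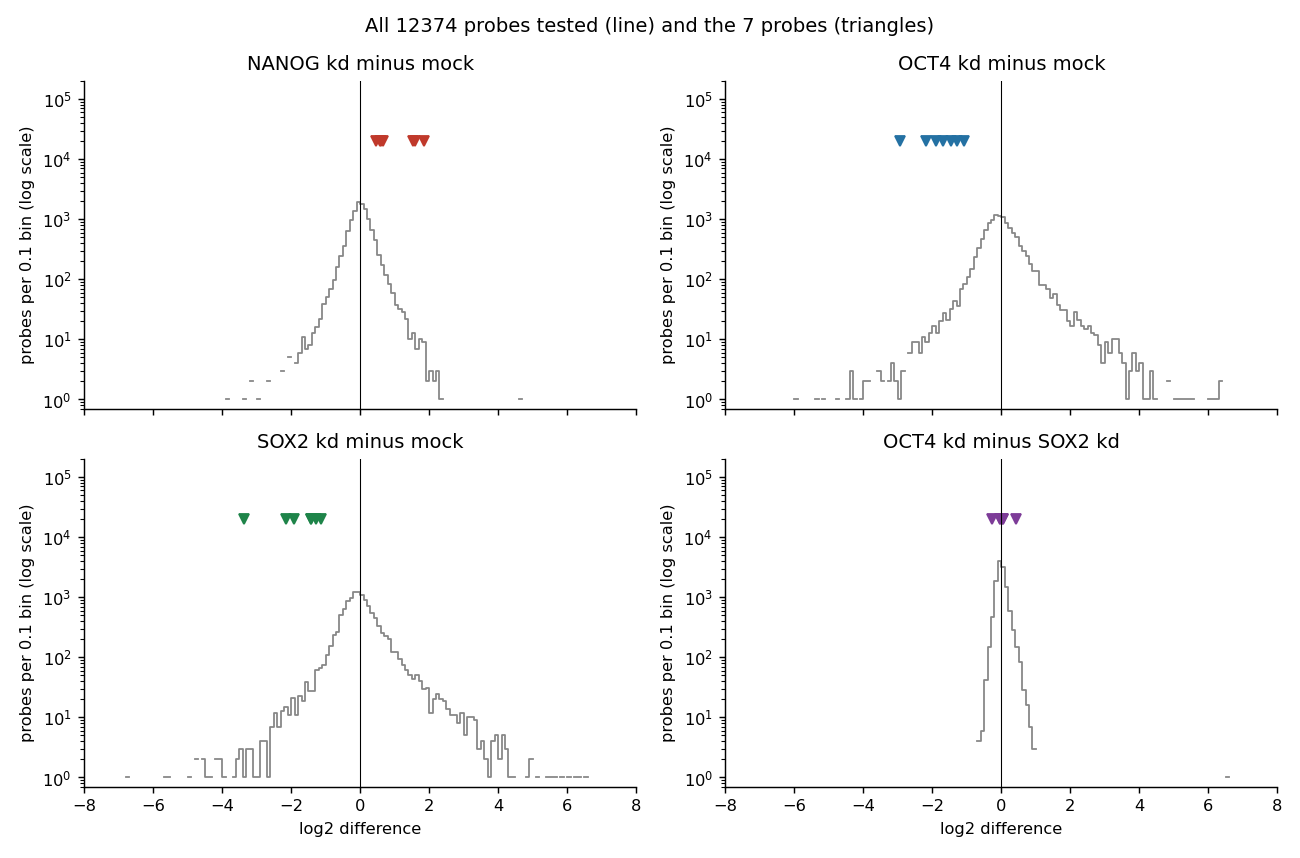
Number of probes per 0.1 of log2 difference (vertical axis, log scale) against the log2 difference (horizontal axis) for all 12374 probes tested, in each of 4 comparisons, with triangles for the 7 probes at an arbitrary height. The triangles lie to the right in the NANOG panel, to the left in the OCT4 and SOX2 panels and around 0 in the panel of OCT4 minus SOX2.

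Between the OCT4 and the SOX2 knock-down the 7 probes differed by -0.27 to 0.42, which is a description, as both groups entered the choice. No probe of the whole array was called in this comparison (0 of 12374, 0%) by limma with Benjamini-Hochberg adjustment, where 1210 had an unadjusted p under 0.05, and the per-probe test named in the study's methods called 20, or 1 after adjustment. For 5 of the probes the 95% confidence interval of the difference, OCT4 minus SOX2 knock-down, describes the spread and is no test. It ran from -0.11 to 0.19 for the FEZ1 variant 1 probe and from -0.30 to 0.22 for the second FEZ1 probe. It ran from -0.19 to 0.11 for CHN1, from -0.23 to 0.35 for CSPG5 and from -0.15 to 0.17 for CACNA2D2. Closeness of the groups is not read from these intervals, since the choice of the genes favours a difference near 0. The offset also shrinks the differences of dim probes such as CSPG5, detected on 2 of 3 arrays of each group.

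The 2 other probes were those that were not detected on any array of 1 of the groups. The FEZ1 variant 2 probe was 0.42 higher in the OCT4 than in the SOX2 knock-down (95% confidence interval 0.21 to 0.64), with all 3 OCT4 arrays above all 3 SOX2 arrays. ACCN1 was lower by 0.27 in the OCT4 knock-down (95% confidence interval -0.51 to -0.04), again without overlap of the arrays. Neither was called over all probes, and their intervals are likewise no test, as both groups entered the choice. Since the first was not detected in the SOX2 and the second not in the OCT4 knock-down, the measured bounds were at least 1.18-fold and at least 1.13-fold, and the OCT4 arrays had the higher raw background. How far the background correction contributed was not tested, but other processing moved both: ACCN1 was called at -0.59 with arrays scaled to a common median, and the FEZ1 variant 2 probe at 0.69 without normalization between arrays.

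The levels of the 7 probes ran in parallel across the groups and not within them. Over the 12 arrays the 21 pairs of probes correlated between 0.959 and 0.996 (Pearson's r, a description, as the points share the groups by which the genes were chosen). After the group means were removed, r ranged from -0.522 to 0.608 with a median of 0.07 over the same pairs. The probes of a gene share their transcript, so the 3 FEZ1 probes are not separate observations of the pattern.

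The 9 named probes outside the 5 genes whose levels ran most closely with theirs were found by Pearson's r with the mean standardised profile of the 7 probes over the 12 arrays. They were KIAA0513 (r = 0.997), KIAA1576 or VAT1L (0.996), the amino acid transporter gene SLC7A8 (0.995), the serotonin receptor gene HTR1D (0.994), the fibroblast growth factor receptor gene FGFR3 (0.994), DHTKD1 (0.993), TNMD (0.993), PRKCBP1 or ZMYND8 (0.992) and the retinoic acid hydroxylase gene CYP26A1 (0.991). Of these CYP26A1 had the largest difference from mock with NANOG silenced (1.22, SE 0.08), from 9.51 ± 0.05 in mock to 10.73 ± 0.06 (SD, n = 3), with values of 8.14 ± 0.12 and 8.07 ± 0.07 (SD, n = 3) in the OCT4 and SOX2 knock-downs. FGFR3 was higher by 0.43 (SE 0.07), from a level of 10.81 ± 0.08 (SD, n = 3) in mock, and fell to 9.56 ± 0.06 and 9.60 ± 0.06. HTR1D was not detected in the OCT4 or SOX2 knock-down, at least 2.41-fold and 2.20-fold below mock. The search covered the probes with a name only, and these had been listed for their change on the same arrays.

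**Figure D4:**
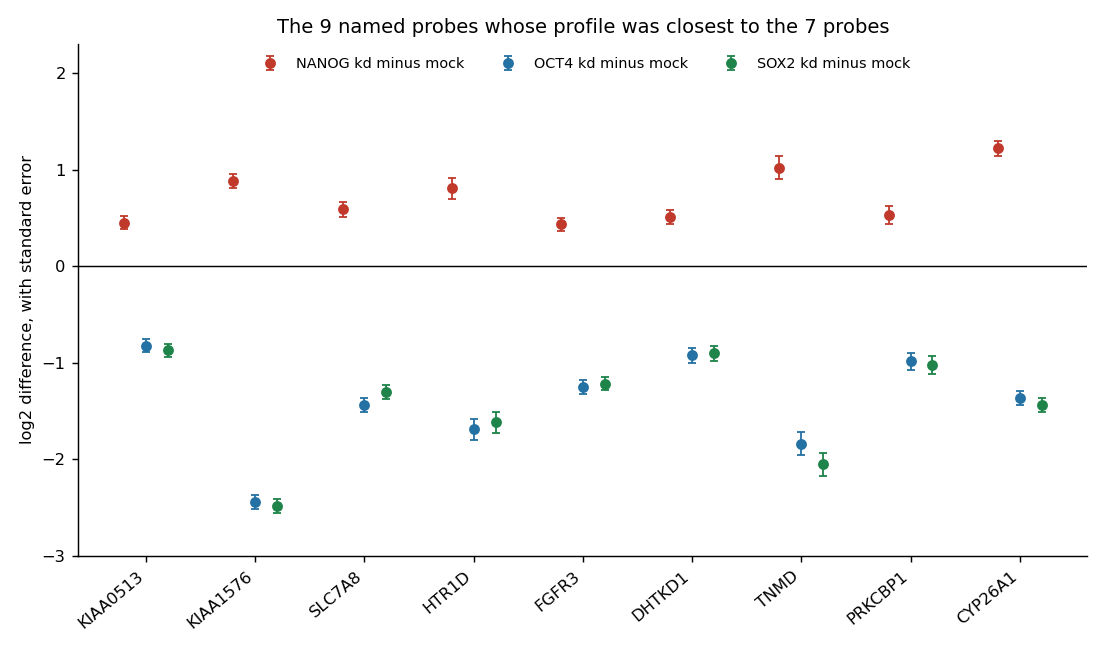
Log2 difference from mock with its standard error (vertical axis) of the 9 named probes whose profile over the 12 arrays was closest to the mean of the 7 probes, in order of r. All 9 lie above 0 with NANOG silenced, between 0.43 and 1.22, and below 0 with OCT4 and SOX2 silenced, where HTR1D (both) and TNMD (SOX2) rest on arrays without detection.

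The named probes of other genes of the same pathways and of neurons did not share the pattern as groups. A named probe was there for 12 of 31 neuronal adhesion genes, 9 of 34 synaptic vesicle and release genes and 8 of 28 neuron markers. Most genes of these lists were therefore not read. Only probes listed by the study as changed carry a name here. Of these 2985 probes 837 were called with NANOG, 2391 with OCT4 and 2295 with SOX2 silenced. The counts that follow, for lists and markers, are therefore of selected probes and cannot be set against the background shares given above. With OCT4 and SOX2 silenced most named probes were called in any case, so a high count there is not particular to a list. Genes of neuronal adhesion gave the most calls: 8 of 13 probes were higher and 1 lower with NANOG silenced. Their median difference was 0.95, which is likewise a value of probes listed for their change and cannot be set against all probes. Of the same 13 probes, 4 were higher and 5 lower with OCT4 and with SOX2 silenced. LRRN5, a leucine-rich repeat protein, rose by 1.82 with NANOG silenced (SE 0.10, adjusted p = 1.6e-07 in limma) and fell by 0.77 and by 0.76 with OCT4 and SOX2 silenced, as FEZ1 did. NLGN2, the neuroligin of inhibitory synapses, was not detected in mock and was at least 2.45-fold higher in the NANOG knock-down, and at least 1.40-fold and 1.34-fold above mock with OCT4 and SOX2 silenced. The protocadherin PCDH8 was detected in the NANOG knock-down alone, at least 1.54-fold above mock. CNTNAP2, a neurexin relative of the axon membrane, rose by 1.27 with NANOG silenced (SE 0.08, adjusted p = 3.43e-07 in limma) but by 3.40 with OCT4 and by 3.40 with SOX2 silenced.

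Chimaerins, ephrins and Eph receptors, the signalling route in which CHN1 acts, were represented by 10 probes, of which 4 were higher and 1 lower with NANOG silenced and 8 higher and 2 lower with OCT4 and with SOX2 silenced. EPHA3 rose by 1.22 with NANOG silenced (SE 0.14, adjusted p = 6.11e-05 in limma). It was detected on 1 of 3 arrays with OCT4 silenced, with a fitted difference of -0.71, and on none with SOX2 silenced, where it was at least 1.37-fold below mock. EFNA1, an ephrin ligand detected on 1 of 3 mock arrays, rose in all 3 knock-downs on the brighter of its probes, with differences of 0.96, 2.71 and 2.72. EPHB3 also rose in all 3, with 0.69, 0.80 and 0.88. EPHA1 fell in all 3, with differences of -1.68, -2.10 and -2.29, of which the last rest on 2 and 1 of 3 detected arrays. The paralogs of CHN1 and FEZ1, which are named here after their values were seen, did not follow them: CHN2 differed from mock by -0.01 with NANOG silenced (SE 0.16, adjusted p = 0.957 in limma) and rose by 1.47 and 1.44 with OCT4 and SOX2 silenced. FEZ2 differed by 0.09 (SE 0.09, adjusted p = 0.44 in limma) and rose by 0.79 and 0.87.

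Among FEZ1 partners and kinesin transport genes, 1 of 5 probes was higher with NANOG silenced, PRKCZ, the atypical protein kinase C that binds FEZ1 (0.67, SE 0.11, adjusted p = 0.000658 in limma), and 3 of 5 were higher with OCT4 and with SOX2 silenced. Synaptic vesicle and release genes had 2 of 10 probes higher with NANOG silenced, both of synaptogyrin SYNGR1 (0.95, SE 0.15, adjusted p = 0.000451 in limma, for the probe detected in mock), and 3 higher and 5 lower with OCT4 and with SOX2 silenced. The remaining lists held 1 or 2 named probes outside the 5 genes. The T-type calcium channel gene CACNA1H rose by 0.93 with NANOG silenced (SE 0.10, adjusted p = 2.49e-05 in limma), and differed by 0.56 and 0.66 with OCT4 and SOX2 silenced, of which the second passed the 1.5-fold line. SCNN1A, a subunit of the epithelial sodium channel related to ACCN1, rose by 0.67 (SE 0.11, adjusted p = 0.000714 in limma) and differed by 0.18 and 0.07. Of the proteoglycan and ErbB list, the receptor gene ERBB2 rose by 0.87 with NANOG silenced (SE 0.16, adjusted p = 0.00175 in limma) and fell by 0.76 and by 1.27, with detection on 1 of 3 arrays in the SOX2 knock-down, while the receptor phosphatase gene PTPRZ1 fell in all 3 knock-downs, with differences of -0.78, -2.22 and -2.35.

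**Figure D5:**
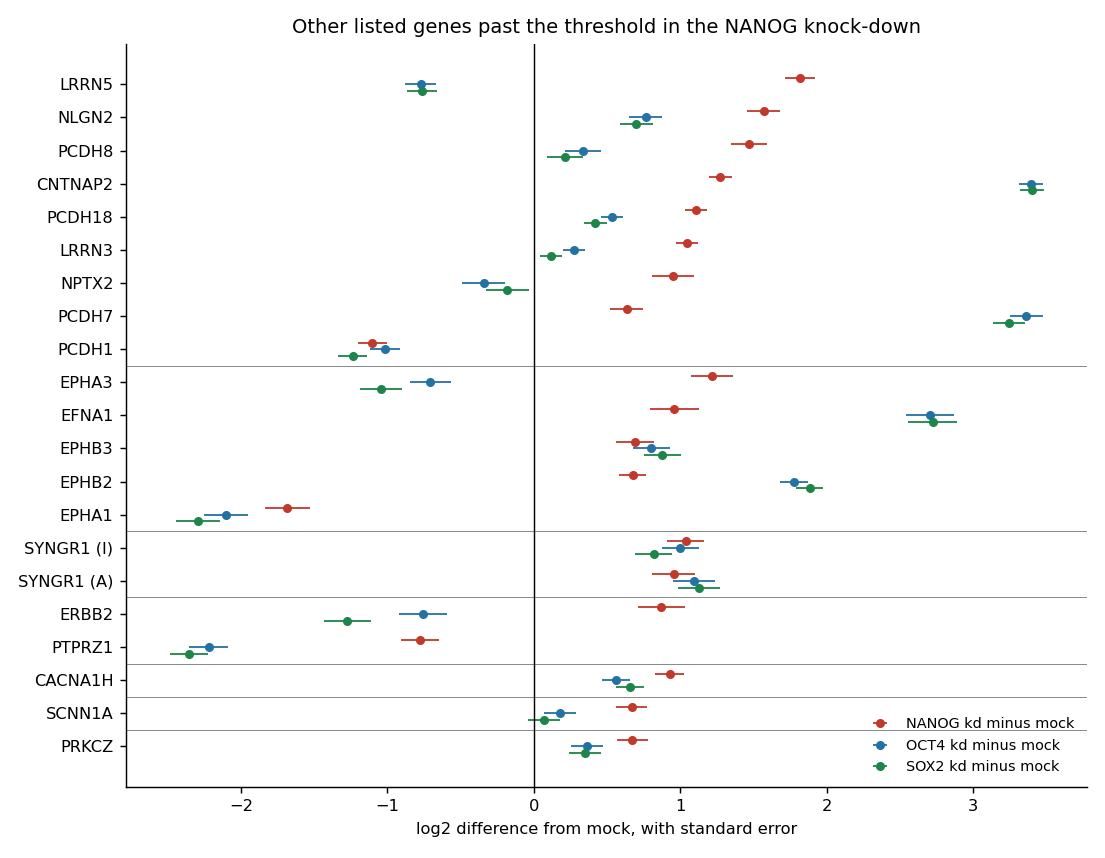
Log2 difference from mock with its standard error (horizontal axis) for the listed probes outside the 5 genes that passed the threshold in the NANOG knock-down, grouped by list from neuronal adhesion at the top to FEZ1 partners at the bottom. LRRN5, EPHA3, ERBB2 and NPTX2 show a positive NANOG value with negative OCT4 and SOX2 values, of which those of NPTX2 were not called and those of EPHA3 (OCT4 and SOX2) and ERBB2 (SOX2) rest on at most 1 of 3 detected arrays. The other genes with a positive NANOG value have positive OCT4 and SOX2 values. Those of PCDH8 lie between groups without detection and were -0.31 and -0.07 with arrays scaled to a common median.

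Markers of whole cell types were read beside these genes, again over named probes. Of 8 neuron markers, 2 were called higher with NANOG silenced, and 1 was lower, PRPH, by 1.20 (SE 0.10, adjusted p = 4.55e-06 in limma). STMN2 was at least 2.00-fold above a mock group without detection. MAP2 was detected on a single NANOG array, and its mean of 5.14 there lay below the mock bound of 5.45, so no rise can be read. The summed linear signal of the 8 markers was 1600 to 1611 per array in mock, 1286 to 1369 in the NANOG, 1478 to 1541 in the OCT4 and 1546 to 1567 in the SOX2 knock-down. Most of the lower sum in the NANOG knock-down was PRPH. Leaving PRPH out was a choice made after seeing the data. Without PRPH the sum was 1132 to 1216 in mock and 1115 to 1159 in the NANOG knock-down, which overlap. It was 1327 to 1400 in the OCT4 and 1388 to 1427 in the SOX2 knock-down, both above mock. The median difference over the 8 markers was -0.02 with NANOG silenced. ENO2, INA, DCX, GAP43 and NEFH, with differences of 0.01 (ENO2), -0.06 (INA), 0.36 (DCX), -0.31 (GAP43) and -0.28 (NEFH), were not called. The term neuronal is used here for what FEZ1, CHN1, CSPG5, ACCN1 and CACNA2D2 are known for and not for the state of the cells. Of 4 neural progenitor markers, OTX2 rose by 1.26 with NANOG silenced (SE 0.11, adjusted p = 6.19e-06 in limma) and differed by -1.31 and -1.5 with OCT4 and SOX2 silenced, which both passed the test. NES rose in all 3 knock-downs by 1.04, 2.13 and 2.32. FABP7 was not called with NANOG silenced (0.37) and differed by -1.05 and -0.94 with OCT4 and SOX2 silenced. SOX3 was not detected in mock or the NANOG knock-down, and its fitted differences were -0.05, 0.94 and 1.12. The summed signal of the list went from 1007 to 1089 in mock to 1681 to 1852, 1345 to 1459 and 1481 to 1677. The higher sums with OCT4 and SOX2 silenced were mostly NES, which went from 7.80 to 9.93 and 10.12, while OTX2 and FABP7 fell.

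In every knock-down, also that of NANOG where the 5 genes rose, the summed signal of undifferentiated hEC markers fell. That of mesoderm-like markers rose, in the NANOG knock-down mostly through HAND1. Both lists hold genes that the paper reports as changed on these same arrays. Their directions with OCT4 and SOX2 silenced were therefore known in advance and are a description. The 11 probes of the former were lower for 8 with NANOG, 11 with OCT4 and 10 with SOX2 silenced, and their summed linear signal was 27934 to 28943 in mock, 18615 to 19569 in the NANOG, 5286 to 6166 in the OCT4 and 5068 to 5586 in the SOX2 knock-down. The 8 probes of the latter summed to 795 to 844 in mock, where ACTC, COL1A1, MSX1 and RUNX1 were not detected. In the NANOG knock-down they summed to 2150 to 2624, and HAND1 alone was called (1.87, SE 0.09, adjusted p = 5.75e-08 in limma). Most of the higher sum there was HAND1, whose mean level went from 9.17 to 11.05. The median difference over the 8 probes was 0.11 with NANOG silenced, and ACTC, COL1A1, COL2A1 and RUNX1 were not detected in that group. The sums were 6952 to 7087 and 5892 to 6533 in the OCT4 and SOX2 knock-downs, where all 8 were higher. The part of these changes in cell state in the levels of FEZ1, CHN1, CSPG5, ACCN1 and CACNA2D2 was not tested.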

How the data were processed

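RNA of NCCIT hEC cells was hybridised by the authors on BeadChips of Illumina (human-6 or human-8 type), and the deposited files hold, per array, the raw mean bead intensity of each probe with its spread over beads and the detection score as a fraction between 0 and 1. A second deposited table holds the authors' means per group as intensity, which were background-subtracted and rank-invariant normalized in BeadStudio 1.0, and was used as an alternative only. Each of the 4 groups is 1 sample of the series with 3 array files, described as biological triplicates by the labels. The labels give harvest at day 2.5, and the methods give other days, so that the labels were followed.

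The raw intensity was not background-subtracted. It was corrected in limma 3.58.1 (R 4.3.3) by normexp, with the negative-control level inferred from the detection scores and an offset of 16, then quantile-normalized and log2-transformed. The offset shrinks log2 differences of dim probes. The 4 bacterial control probes were left out. Probes with a score above 0.99 on all 3 arrays of at least 1 group (12374) were fitted by lmFit and eBayes over all 12 arrays, with Benjamini-Hochberg adjustment over all of them, and called at an adjusted p under 0.05 and at least 1.5-fold. A probe detected on no array of a group has only a bound there: per array, the higher of its own signal and the lowest signal of any detected probe. The precision is limited by 3 arrays a group. The pipeline was tested on simulated data.

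The genes and gene lists were chosen with earlier results of these data known. The fit gives p-values for the 7 probes between OCT4 and SOX2 knock-down too, but these are not given, because both groups entered the choice of the genes. Probe names were taken from the study's supplementary list of changed probes (2985 probes, 2481 of them matched to RefSeq by accession), as no annotation of the whole array was used here. From each list the up to 4 genes with the largest absolute difference among probes called with NANOG silenced are named, beside the named probes of closest profile (the rule took 10, of which 9 are given, as 1 is not reported here) and the silenced factors. Array numbers did not pair the groups: of 18 same-number pairs 4 correlated over 0.1 in their deviations from the group means (-0.304 to 0.309). Alternatives were median scaling, no normalization, floors of 20 and 50 after quantile normalization, no detection filter, detection on all 12 arrays, fits on the compared groups alone, a replicate block, the methods' t-test, the authors' means and each array left out.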

Additional observations from a re-analysis of the deposited data

How the results depend on the processing

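The 7 probes kept the sign of their difference from mock in all 357 values recomputed under the alternatives, of which 55 moved by more than the spread between arrays. Of the 7, 6 were called with NANOG silenced under median scaling and both floors, and with a floor of 50 also 6 with OCT4 and 6 with SOX2 silenced. Without normalization between arrays the median of all probes shifted by 0.20, 0.65, 0.26 and 0.38 (NANOG, OCT4 and SOX2 against mock, OCT4 against SOX2), the median of the 7 probes was 0.91, -1.14, -1.07 and 0.37, and 7 were called higher with NANOG, 5 lower with OCT4 and 7 lower with SOX2 silenced. The same setting gave 1265 probes higher and 246 lower with NANOG, 7242 called (6947 higher, 295 lower) with OCT4, and 3127 higher and 531 lower with SOX2 silenced, 917 between OCT4 and SOX2, and 5 listed probes lower with OCT4 silenced, where NEFH and RAB3A changed sign. Medians of the 7 probes were -1.91 under median scaling, -1.98 with a floor of 20 and -1.53 with a floor of 50 for OCT4 against mock, and -1.91 with a floor of 20 and -1.59 from the authors' means for SOX2 against mock.

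With detection required on all 12 arrays, which leaves fewer probes and drops those at the background, 691 probes (349 higher, 342 lower) were called with NANOG, 2007 (956 higher) with OCT4 and 1960 (968 higher) with SOX2 silenced, 17 between OCT4 and SOX2, and listed probes numbered 11 higher with NANOG, 11 higher and 8 lower with OCT4, and 12 higher and 8 lower with SOX2 silenced. The adjusted t-test called 769 probes with NANOG silenced. Between OCT4 and SOX2, 49 probes were called under median scaling, 5 with a floor of 50, 2 with those groups alone, and 20 or, adjusted, 1 by the t-test. The near-zero differences between OCT4 and SOX2 changed sign: CSPG5 to -0.13 and CACNA2D2 to -0.015 under median scaling, the second FEZ1 probe to 0.35 and CHN1 to 0.37 without normalization, and the FEZ1 variant 1 probe to -0.016, CSPG5 to -0.057 and CACNA2D2 to -0.037 in the authors' means. The cause was not tested.

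Leaving out each array in turn gave 0 to 4 calls between OCT4 and SOX2 and 31 to 38 probes of the full pattern. The median of the 7 probes ranged from -1.82 to -1.59 with OCT4 and from -1.55 to -1.40 with SOX2 silenced, lowest in both without mock replicate 3. Between OCT4 and SOX2 the FEZ1 variant 1 probe ranged from -0.002 to 0.068, the second FEZ1 probe from -0.165 to 0.059, CSPG5 from -0.073 to 0.174 and CACNA2D2 from -0.026 to 0.042. With the array number as a replicate block, 1177 probes were called with NANOG, 3067 with OCT4 and 2978 with SOX2 silenced, 0 between OCT4 and SOX2 and 34 in the full pattern, and 5 of 12 arrays were closest to an array of their own number. Dim signal limits ACCN1, CSPG5 and the FEZ1 variant 2 probe, whose falls are bounds or rest on 2 of 3 detected arrays. The exception is the FEZ1 variant 2 probe with OCT4 silenced, which was detected on all 3 arrays.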

Other observations

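A single probe of the array, that of the histone gene H2AV (GI_41406065-A, singled out after its values were seen), spread by more than 2 on the log2 scale within a group. It read 4.26 and 4.38, without detection, on mock replicates 1 and 3 but 9.95 on mock replicate 2. It read 11.02, 10.87 and 10.60 in the NANOG and 10.94, 11.06 and 11.12 in the OCT4 knock-down, and 4.61, 4.47 and 4.34, again without detection, in the SOX2 knock-down. The next widest probe spread by 1.84, and the 7 probes of FEZ1, CHN1, CSPG5, ACCN1 and CACNA2D2 spread by 0.07 to 0.46 within groups.

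Several genes outside the 5 described above held the full pattern of higher signal with NANOG and lower signal with both OCT4 and SOX2 silenced. They included the transcription factor gene TFAP2A (1.58, -1.07 and -1.61), the activin antagonist gene FST (1.21, -0.83 and -0.80), the homeobox gene IRX1 (1.05, -0.80 and -0.90) and the vesicle GTPase gene RAB3B (0.90, -1.35 and -1.36), which are log2 differences from mock with NANOG, OCT4 and SOX2 silenced. These genes were chosen after their values were seen.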
